A study of Rattus norvegicus with 6 samples.

Results

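The genes described are 9 genes of the NRF2 and glutathione redox system of rat liver: Nfe2l2, Nqo1, Hmox1, Gclc, Gclm, Gsr, Txnrd1, Srxn1 and Gpx2. Like the related gene lists used below, these 9 were chosen by name from textbook knowledge, with earlier results of these data known. They are carried by 11 probes of the 30367 on the array, matched through their transcript accession, and all 9 were among the 16389 genes tested. Livers came from 3 male Wistar Hannover rats (RCCHan:WIST) dosed by oral gavage with pregnenolone-16α-carbonitrile (PCN) at 100 mg/kg/day in corn oil for 7 days, and from 3 rats of the same strain and sex given corn oil alone for 7 days. The rats were bought at 4 weeks of age and held for 1 week. PCN, a steroid made by synthesis, is the standard activator of the rodent pregnane X receptor (PXR). Total RNA from each whole liver sample was labelled with Cy3 and read on 1 Agilent 1-colour array, so every value is a mixture of all liver cell types, and fewer cells of a type cannot be told apart from less RNA per cell.

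NRF2, the product of Nfe2l2, is a transcription factor that the adaptor KEAP1 normally sends for degradation. Electrophiles and oxidants modify KEAP1, NRF2 then accumulates, pairs with a small MAF protein and binds antioxidant response elements near genes for quinone reduction, glutathione synthesis and recycling, and the thioredoxin system. Glutathione is made in hepatocytes by glutamate-cysteine ligase and glutathione synthetase, is oxidised as peroxides and electrophiles are removed, and is returned to its reduced form by glutathione reductase with NADPH.

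Because antioxidant response elements define the system, the 250 bases before the RefSeq start of each member (GRCr8, 5′ to 3′ on the strand of the gene) were searched for the core TGACNNNGC on both strands, where its reverse complement is GCNNNGTCA. The promoter table held 8 windows for 7 members, Txnrd1 having 2, and 3 windows held the core once, against 10.1% of all 33469 windows in the table. The 3 windows are shown with the core in capitals. All 3 cores lie on the strand opposite to the gene, so GCNNNGTCA is what appears in each. That of Gclm (chr2:213031885-213032134, + strand) reads TGACTAAGC and begins 172 bases before the start, that of Txnrd1 (chr7:22755905-22756154, - strand) reads TGACAAAGC at 78 bases, and that of Gpx2 (chr6:101230034-101230283, - strand) reads TGACTTAGC at 13 bases.
Gclm: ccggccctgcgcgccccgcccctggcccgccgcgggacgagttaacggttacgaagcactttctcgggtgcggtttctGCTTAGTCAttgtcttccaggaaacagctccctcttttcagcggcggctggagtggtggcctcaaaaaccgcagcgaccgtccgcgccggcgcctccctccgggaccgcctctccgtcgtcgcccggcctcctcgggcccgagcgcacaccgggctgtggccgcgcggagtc
Txnrd1: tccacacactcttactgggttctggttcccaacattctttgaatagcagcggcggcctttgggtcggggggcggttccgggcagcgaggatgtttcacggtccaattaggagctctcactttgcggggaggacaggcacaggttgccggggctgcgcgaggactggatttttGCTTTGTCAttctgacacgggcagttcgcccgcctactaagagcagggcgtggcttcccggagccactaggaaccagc
Gpx2: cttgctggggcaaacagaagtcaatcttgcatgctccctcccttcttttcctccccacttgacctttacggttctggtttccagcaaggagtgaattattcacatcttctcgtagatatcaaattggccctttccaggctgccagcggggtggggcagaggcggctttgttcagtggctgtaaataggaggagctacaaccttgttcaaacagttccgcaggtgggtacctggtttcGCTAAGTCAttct
Gclm, Txnrd1 and Gpx2 differed in what their signals did, as given below. The windows of Nfe2l2, Nqo1, Gclc and Srxn1 and the other window of Txnrd1 did not hold these letters, and elements farther away were not searched. Gsr and Hmox1 were not searched. A match is a run of letters and not a shown binding site.

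The arrays had a 75th percentile of signal between 488 and 627 with PCN and between 633 and 758 in controls, with 61.6% to 65.8% of spots well above background with PCN and 65.5% to 68.9% in controls, and 0 saturated spots. The PCN arrays lay on 1 slide with 1 scan and the control arrays on another, so in every comparison that follows the slide cannot be told apart from the treatment. All 8 hepatocyte markers, among them Alb and Ttr, were well above background on all 6 arrays, and 0 of the 8 passed the test, nor had any an unadjusted p under 0.05 (limma, median difference 0.06, -0.22 with the spike-in scaling). Values are given as levels, log2 of the processed signal over the 75th percentile of the array (0 is that percentile), or as differences of these levels, PCN minus control, with the standard error (SE) of limma's fit over all tested genes. A gene passed the test at a Benjamini-Hochberg adjusted p under 0.05 over all 16389 genes, and the adjusted p-values below are from that fit unless another is named.

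The comparison asks which of these genes differed in liver after 7 days of PCN. Glutathione reductase (Gsr) and the quinone reductase Nqo1 rose. The modifier subunit of glutamate-cysteine ligase (Gclm) was called lower, but at a dim probe that entered the test only through the control arrays. The other 6 of the 9 members did not pass the test, among them the gene of NRF2 itself. Gsr was 2.45-fold higher and Nqo1 1.95-fold higher, and both were well above background on all 6 arrays. The count of 3 of 9 stands beside 19.9% of all tested genes, of which 4.37% were higher and 15.5% lower (716 and 2547 genes, against 2686 and 1866 with median scaling and 156 and 4945 with spike-in scaling). The median difference of the 9 was 0.77, against -0.06 over all tested genes. Without adjustment 6 of the 9 had p under 0.05, as did 34.5% of all tested genes. The PCN arrays did not overlap the control arrays for 4 members, 3 higher and 1 lower, where 41.4% of all tested genes did not overlap.

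**Figure D1:**
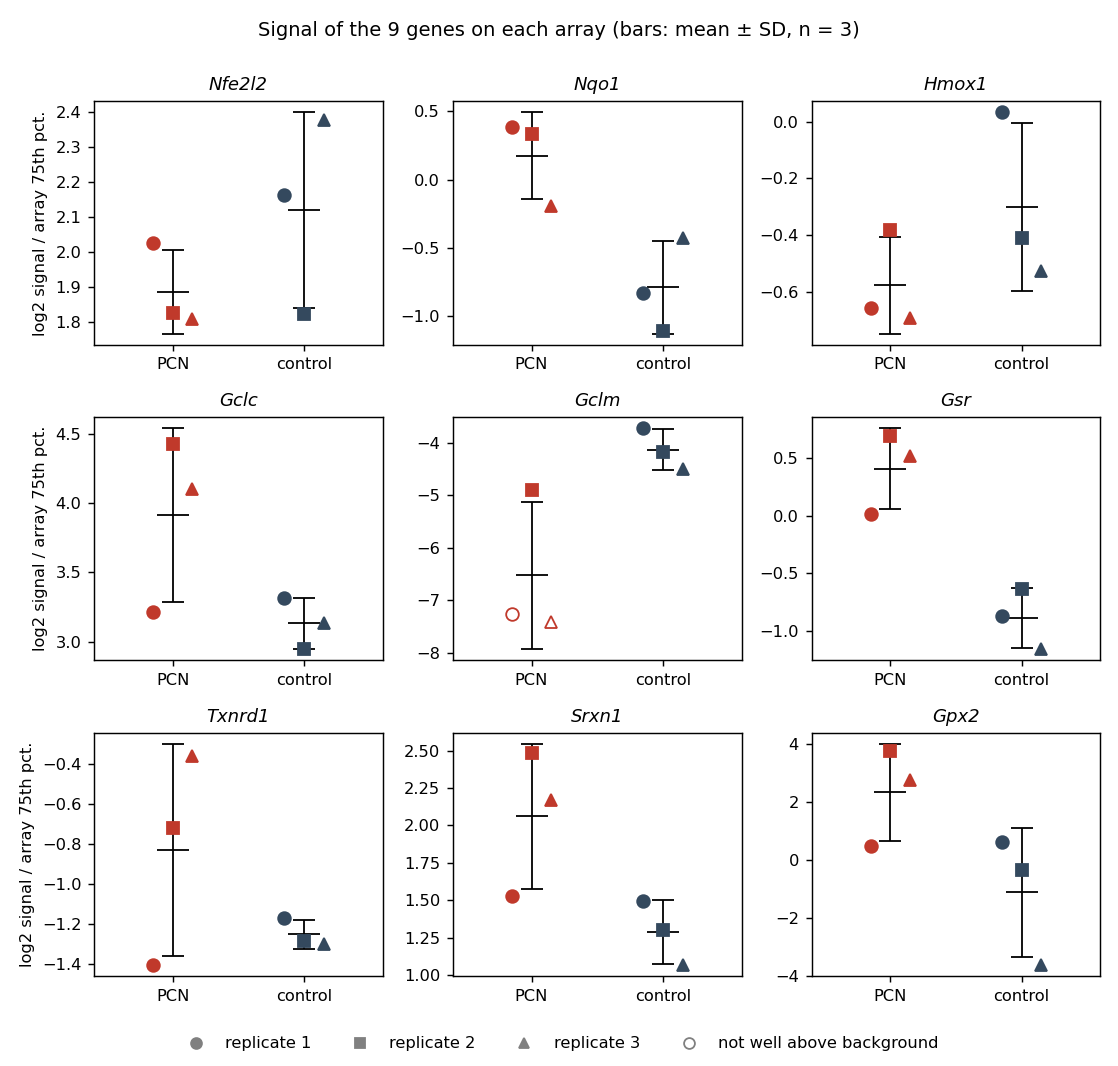
Level of each of the 9 genes (log2 of processed signal over the 75th percentile of its array) on the 3 PCN arrays and the 3 control arrays, with mean and SD as bars and each panel on its own axis. The PCN and control arrays are apart for Nqo1, Gsr, Srxn1 and Gclm, and open symbols mark the 2 PCN arrays on which Gclm was not well above background.

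Among the regulators, Nfe2l2, which encodes NRF2, had levels of 2.02, 1.83 and 1.81 in PCN livers, against 2.16, 1.82 and 2.38 in control livers. The PCN arrays lay close together inside the span of the controls, near its lower end, except that replicate 3 lay below the lowest control by a margin smaller than the spread of either group. The difference was -0.23 ± 0.16 (SE, n = 3 per group, adjusted p = 0.353), with a 95% interval of -0.62 to 0.15. It was -0.03 with median scaling, -0.51 with the spike-in scaling (adjusted p = 0.0593) and -0.11 without control replicate 3. As background, NRF2 protein is set mainly by its degradation rather than by its transcript. Of 16 tested genes that regulate NRF2 or its degradation, 3 rose and 0 fell (limma, 6 higher and 0 lower at an unadjusted p under 0.05), with a median of 0.15 that turned to -0.12 when arrays were scaled to the E1A spike-ins. Of all tested genes 19.9% were called, 4.37% higher and 15.5% lower, and 34.5% had an unadjusted p under 0.05. The shares in this list were close to these in either direction, but all 3 of its calls were higher. With median scaling 7 of the list were called and with the spike-in scaling 1. Sqstm1, which encodes p62, an adaptor that sequesters KEAP1, rose by 0.86 ± 0.14 (adjusted p = 9.35e-03). Nfe2l1, the NRF2-related factor known for driving proteasome genes, also rose by 0.86 ± 0.11 (adjusted p = 3.73e-03), and Rbx1, the RING subunit of the ligase that KEAP1 recruits, rose by 0.57 ± 0.09 (adjusted p = 8.72e-03). Sqstm1 and Rbx1 were no longer past the threshold with the spike-in scaling (adjusted p = 0.052 and 0.181). Keap1 itself, picked with its value known, differed by 0.34 ± 0.11 (adjusted p = 0.0681).

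Nqo1 encodes a cytosolic reductase that carries quinones to hydroquinones and is the usual marker transcript of NRF2. Its levels were 0.39, 0.33 and -0.19 in PCN livers, against -0.83, -1.11 and -0.43 in control livers. Each PCN array lay above each control array, PCN replicate 3 and control replicate 3 being the closest pair. Nqo1 rose by 0.96 ± 0.23 on the log2 scale (n = 3 per group, adjusted p = 0.0277). The call ended without PCN replicate 1 or 2 or control replicate 1 or 2 (adjusted p = 0.0764, 0.079, 0.0849 and 0.0765), and with the spike-in scaling (0.69, adjusted p = 0.0764), while the difference stayed between 0.81 and 1.15 in all fits with 1 array left out. The 3 named genes whose profile over the 6 arrays lay nearest to that of Nqo1 were Styxl1, Nrg1 and Gria3, with a root mean square distance of 0.12, 0.15 and 0.20 on the log2 scale.

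Hmox1 encodes heme oxygenase 1, which opens the heme ring to biliverdin, iron and carbon monoxide and is high in Kupffer cells, the resident macrophages of liver. Its probe was spotted 10 times on each array. Its levels were -0.66, -0.38 and -0.69 in PCN livers, against 0.03, -0.41 and -0.53 in control livers. The groups overlapped, and control replicate 1 was the highest array. The difference was -0.28 ± 0.17 (adjusted p = 0.313), with a 95% interval of -0.69 to 0.14. It was -0.11 without control replicate 1, -0.07 with median scaling and -0.55 with the spike-in scaling, and did not pass in any of these. The median spread of its spots within an array was 0.06 (SD), against 0.17 between PCN rats and 0.30 between control rats. None of the 10 markers of Kupffer cells passed the test (limma), and all 10 had a negative difference (median -0.39). An unadjusted p under 0.05 was found for 3 of the 10, beside 34.5% of all tested genes. With the spike-in scaling 2 were called lower, beside 4945 of all tested genes, and 1 without PCN replicate 1 or with the mean of a gene's probes. The summed level of the markers (linear, in multiples of the 75th percentile) ran from 47.0 to 68.4 on PCN arrays and from 66.4 to 76.2 on control arrays. All 10 were well above background on all arrays, and their part in the value of Hmox1 was not tested. Of the related list of 16 genes for catalase, superoxide dismutases, quinone and heme breakdown and iron handling, 1 rose and 1 fell, with a median of 0.12 (-0.15 with the spike-in scaling), a smaller share called than the 19.9% of all tested genes. With median scaling 5 were called higher and 0 lower. Blvrb, biliverdin reductase B, rose by 1.18 ± 0.10 (adjusted p = 1.04e-03), its PCN arrays at 5.48, 5.68 and 5.71, against 4.43, 4.49 and 4.41 in controls. Of 6 red blood cell markers 4 were tested and 0 passed (limma, 0 with an unadjusted p under 0.05), with summed levels of 3.57 to 6.31 on PCN arrays and 3.51 to 4.99 on control arrays. Slc40a1, the iron exporter ferroportin, which Kupffer cells also express, fell by 0.77 ± 0.20 (adjusted p = 0.0385), a call that ended in 4 of 6 fits with 1 array left out (without PCN replicate 1 or 3 or control replicate 1 or 3), with adjusted p up to 0.117.

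The subunits of glutamate-cysteine ligase, the enzyme that sets the pace of glutathione synthesis, gave different calls. Gclc, the catalytic subunit, had levels of 3.21, 4.43 and 4.10 in PCN livers, against 3.31, 2.95 and 3.14 in control livers. PCN replicates 2 and 3 lay above all controls and PCN replicate 1 among them. The difference was 0.78 ± 0.30 (adjusted p = 0.122), with a 95% interval of 0.06 to 1.51 before adjustment for the number of genes. Without PCN replicate 1 it was 1.13 (adjusted p = 0.0124), and it was 0.52 without PCN replicate 2 (adjusted p = 0.254). The spots of Gclc within an array had a median SD of 0.01, against 0.63 between PCN rats and 0.18 between control rats.

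Gclm, the modifier subunit, which lowers the amount of glutamate the enzyme needs, gave a dim signal throughout. Its levels were -7.27, -4.90 and -7.41 in PCN livers, against -3.71, -4.17 and -4.49 in control livers. The processed signals behind them were 3.85, 21.0 and 2.86 with PCN, against 51.7, 42.1 and 28.2 in controls. Every PCN array lay below every control array, but only PCN replicate 2 was well above background, so Gclm entered the test only through the controls, and the size of the difference is set by 2 PCN arrays near background and is not a measured fold. The fit gave -2.40 ± 0.66 (adjusted p = 0.0457), and with normexp background correction, which draws dim signals together, the difference was -0.26 (adjusted p = 0.121). Where probes had to be well above background on all 6 arrays it was not tested. The call also ended without PCN replicate 1 or 3 (adjusted p = 0.115 and 0.112) and without control replicate 1, 2 or 3 (adjusted p = 0.134, 0.106 and 0.0875). Without PCN replicate 2 the difference was -3.22 (adjusted p = 2.49e-03). That fit kept only the 2 PCN arrays near background, so neither its size nor its p-value strengthens the call. Gclm has the window with the core 172 bases before its start that is printed above. The nearest named profiles were Btnl5, Id3 and Tas2r113, at a distance of 0.45, 0.61 and 0.68.

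Elsewhere in glutathione synthesis and breakdown, 4 of 18 tested genes rose and 1 was called lower, beside 4.37% and 15.5% of all tested genes, with a median of 0.02 that turned to -0.06 with cyclic loess, -0.07 with quantile normalization and -0.26 with the spike-in scaling. Gss, glutathione synthetase, picked with its value known, differed by 0.08 ± 0.10 (adjusted p = 0.643). Ggt1, the gamma-glutamyltransferase that cleaves extracellular glutathione, rose by 1.72 ± 0.28 (adjusted p = 8.93e-03), its levels being -3.49, -3.22 and -3.60 in PCN livers, against -4.49, -5.51 and -5.47 in controls. The difference was 0.69 with normexp, at an adjusted p of 4.63e-03. Cndp2, a dipeptidase that splits cysteinylglycine, rose by 0.77 ± 0.12 (adjusted p = 7.90e-03). Slc3a2, the heavy chain that cystine and other amino acid carriers share, rose by 0.78 ± 0.20, and Ggct, which cleaves gamma-glutamyl amino acids, by 0.58 ± 0.14 (adjusted p = 0.0356 and 0.0305). Both lost the call in 5 of 6 fits with 1 array left out, Slc3a2 in all but that without PCN replicate 1 and Ggct in all but that without control replicate 1, and the mean of the probes of Ggct was 0.05, since its probes disagreed. Ggt5, called lower (adjusted p = 0.0419), reached the mark for well above background on 1 of the 3 PCN arrays and so entered the test only through the controls, lost the call in 5 of 6 such fits (all but that without PCN replicate 1) and differed by 0.014 with normexp. Slc7a11, the cystine carrier and a textbook NRF2 target, stayed below that mark on all 6 arrays and was not tested.

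Gsr encodes glutathione reductase, which returns oxidised glutathione to its reduced form. Its levels were 0.01, 0.69 and 0.52 in PCN livers, against -0.87, -0.63 and -1.16 in control livers. Every PCN array lay above every control array, with PCN replicate 1 the lowest of its group. Gsr rose by 1.29 ± 0.21 on the log2 scale (n = 3 per group, adjusted p = 8.93e-03). It was the member past the threshold in all 18 alternatives, at 1.02 to 1.501 (adjusted p = 4.35e-03 to 0.0349). Its probe had 10 spots on each array, all of them well above background, with a median SD within an array of 0.06, against 0.35 between PCN rats and 0.26 between control rats. The nearest named profiles were Aldh1a1, Panx2 and Gstm1, at a distance of 0.14, 0.16 and 0.18.

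**Figure D2:**
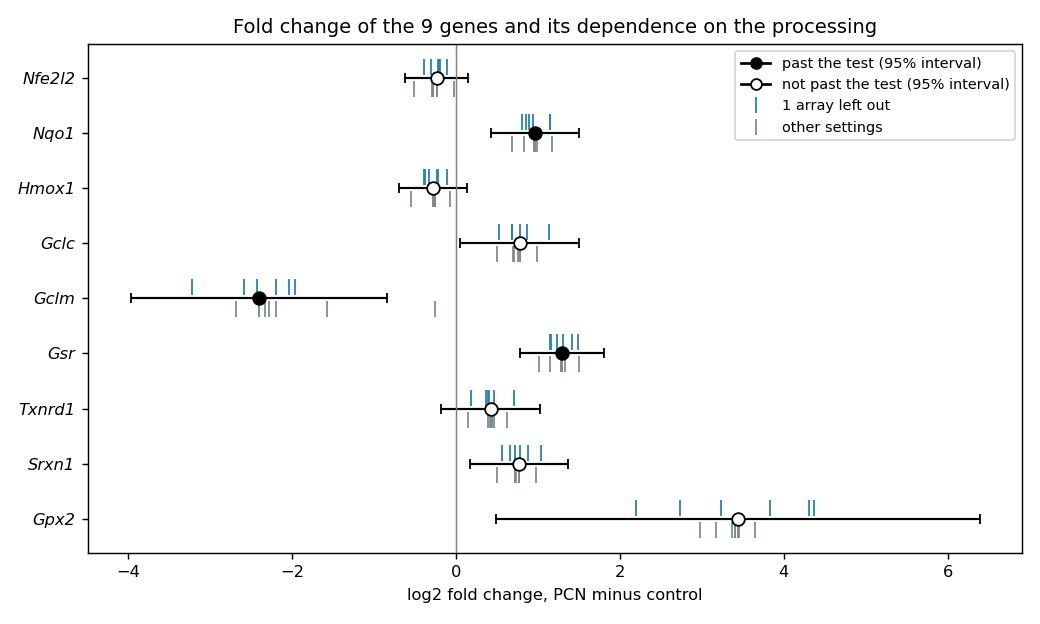
Difference of the 9 genes on the log2 scale, PCN minus control, with its 95% interval from limma (n = 3 per group), and as ticks the same value with 1 array left out (above each point) and under the other settings (below). Filled points passed the test, and the values of Gsr run from 1.02 to 1.501 while those of Gclm run from -3.22 to -0.26.

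The NADPH that Gsr and thioredoxin reductase use comes in part from the pentose phosphate pathway. Of 13 tested genes for NADPH supply 3 rose and 0 fell (limma, 4 higher and 0 lower at an unadjusted p under 0.05), with a median of 0.25 that turned to -0.03 with the spike-in scaling, where 1 was called. Of all tested genes 4.37% were called higher. Tkt, transketolase, of the non-oxidative branch, rose by 1.14 ± 0.21 (adjusted p = 0.0118), its levels being 5.98, 6.76 and 6.13 in PCN livers, against 5.13, 5.10 and 5.23 in controls. Aldh1l1, a folate enzyme that forms NADPH, rose by 0.68 ± 0.13 and Nadk, the cytosolic NAD kinase, by 0.49 ± 0.10 (adjusted p = 0.0145 and 0.0172). Each lost the call in 2 of 6 fits with 1 array left out, Aldh1l1 without control replicate 1 or 3 and Nadk without control replicate 1 or 2, at adjusted p of up to 0.0541 and 0.0617.

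In the thioredoxin branch, Txnrd1 encodes the cytosolic thioredoxin reductase. At its brighter probe the levels were -1.41, -0.72 and -0.36 in PCN livers, against -1.17, -1.29 and -1.30 in control livers. PCN replicate 1 was the lowest of the 6 arrays and PCN replicates 2 and 3 the highest. The difference was 0.42 ± 0.25 (adjusted p = 0.290), with a 95% interval of -0.18 to 1.03, and the other probe gave 0.47 ± 0.28 (adjusted p = 0.298 in the fit of all tested probes, where 18.9% passed). Without PCN replicate 1 it was 0.71 (adjusted p = 0.0297), without PCN replicate 3 it was 0.19 (adjusted p = 0.611), and with the spike-in scaling it was 0.15 (adjusted p = 0.684).

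Srxn1 encodes sulfiredoxin, which reactivates overoxidised peroxiredoxins. Its levels were 1.53, 2.48 and 2.17 in PCN livers, against 1.497, 1.30 and 1.07 in control livers. The groups did not overlap, but PCN replicate 1 lay just above control replicate 1. The difference was 0.77 ± 0.25 (adjusted p = 0.0756), 1.04 without PCN replicate 1 (adjusted p = 0.0177) and 0.98 with median scaling (adjusted p = 0.0351). It was 0.56 without PCN replicate 2 (adjusted p = 0.159) and 0.497 with the spike-in scaling (adjusted p = 0.231).

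Of 18 tested thioredoxins, peroxiredoxins and sestrins, 3 rose and 0 fell (limma, 7 higher and 1 lower at an unadjusted p under 0.05), with a median of 0.21 that turned to -0.07 with the spike-in scaling. With median scaling 9 were called higher, with quantile normalization 1, and with the spike-in scaling 0 higher and 2 lower. Of all tested genes 4.37% were called higher and 15.5% lower, 19.9% in either direction, while all 3 calls in this list were higher. Txn1, cytosolic thioredoxin, rose by 0.70 ± 0.13 (adjusted p = 0.0145), and was not past the threshold without control replicate 3 (adjusted p = 0.0519) or with the spike-in scaling (adjusted p = 0.152). Msrb2, a methionine sulfoxide reductase, rose by 0.49 ± 0.12, and Prdx1, a cytosolic peroxiredoxin, by 0.45 ± 0.12 (adjusted p = 0.0307 and 0.0381). Both lost the call in 5 of 6 fits with 1 array left out (all but that without control replicate 3), at adjusted p of up to 0.0965 and 0.111.

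Gpx2 encodes a glutathione peroxidase best known from gut epithelium. It had the largest difference and the largest spread of the 9. At its brighter probe the levels were 0.48, 3.75 and 2.74 in PCN livers, against 0.60, -0.34 and -3.62 in control livers. PCN replicate 1 lay below control replicate 1, PCN replicates 2 and 3 lay above all controls, and control replicate 3 lay far below the other two. The other probe had -1.29, 1.88 and 0.94 in PCN livers, against -1.26, -2.12 and -5.20 in controls, in the same order of arrays. The difference was 3.44 ± 1.24 (adjusted p = 0.0989) with a 95% interval of 0.49 to 6.39, and the other probe gave 3.37 ± 1.17 (adjusted p = 0.0933 in the fit of all tested probes). The spots within an array had a median SD of 0.02, against 1.67 between PCN rats and 2.22 between control rats, and spots of an array share 1 labelling and hybridisation. Without control replicate 3 the difference was 2.19 (adjusted p = 0.189). Of 6 gut and pancreas markers 5 were not tested, 3 of these (Cdx2, Vil1 and Prss1) staying below the mark on all 6 arrays, and Fabp2 differed by 0.72 (adjusted p = 0.265). The summed level of the 1 tested marker ran from 1.57 to 3.36 with PCN and from 0.854 to 2.09 in controls, and its part in the value of Gpx2 was not tested. Of 8 bile duct markers 4 were tested and 0 passed (limma, 1 with an unadjusted p under 0.05), with a median of 0.21 that turned to -0.06 with the spike-in scaling.

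Among the other glutathione peroxidases, glutaredoxins and glyoxalases, 0 of 14 tested genes rose and 3 were called lower (limma, 1 higher and 4 lower at an unadjusted p under 0.05), with a median of -0.07 that turned to 0.14 with median scaling. Of all tested genes 15.5% were called lower and 34.5% had an unadjusted p under 0.05, close to the shares in this list. Gpx6 was called lower (adjusted p = 8.60e-03), but only 1 PCN array had it well above background, so that it entered the test through the controls, and normexp put the difference at -0.26 (adjusted p = 0.144). Hpgds, a glutathione transferase that makes prostaglandin D2, fell by 0.59 ± 0.14, and Gpx8, a peroxidase of the endoplasmic reticulum, by 0.47 ± 0.10 (adjusted p = 0.0310 and 0.0235). Both lost the call in 5 of 6 fits with 1 array left out, Hpgds in all but that without PCN replicate 2 and Gpx8 in all but that without PCN replicate 1. Gpx8 kept the call in 6 of 12 other settings, and over all alternatives its difference ran from -0.745 to -0.099.

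The levels of the members varied among the 3 PCN rats. PCN replicate 1 was the lowest PCN array for 5 of the 9 members, Gclc, Gsr, Txnrd1, Srxn1 and Gpx2, against 26.5% of all tested genes and 44.4% of genes that rose. Against the control mean, PCN replicate 1 differed by 0.08 for Gclc, -0.15 for Txnrd1 and 0.24 for Srxn1, while PCN replicate 2 differed by 1.29, 0.53 and 1.19 and PCN replicate 3 by 0.97, 0.89 and 0.88 for the same genes. Nqo1 went the other way, with 1.18 in PCN replicate 1, 1.12 in replicate 2 and 0.60 in replicate 3. With PCN replicate 1 left out, 4 members were called higher, Gclc, Gsr, Txnrd1 and Srxn1, and 0 lower, where 2.77% of all tested genes were called higher and 15.8% in either direction. Since PCN replicate 1 was the lowest PCN array for these 4, this count restates that order. Without PCN replicate 2, 1 member was called higher and 1 lower, beside 543 and 1991 of all tested genes. The 1 lower was Gclm, with both remaining PCN arrays not well above background. Without PCN replicate 3, 2 members were called higher and 0 lower, beside 407 and 2112 of all tested genes. In the fit without PCN replicate 1, Nqo1 and Gclm were not past the threshold (adjusted p = 0.0764 and 0.115). Why PCN replicate 1 differs was not tested.

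**Figure D3:**
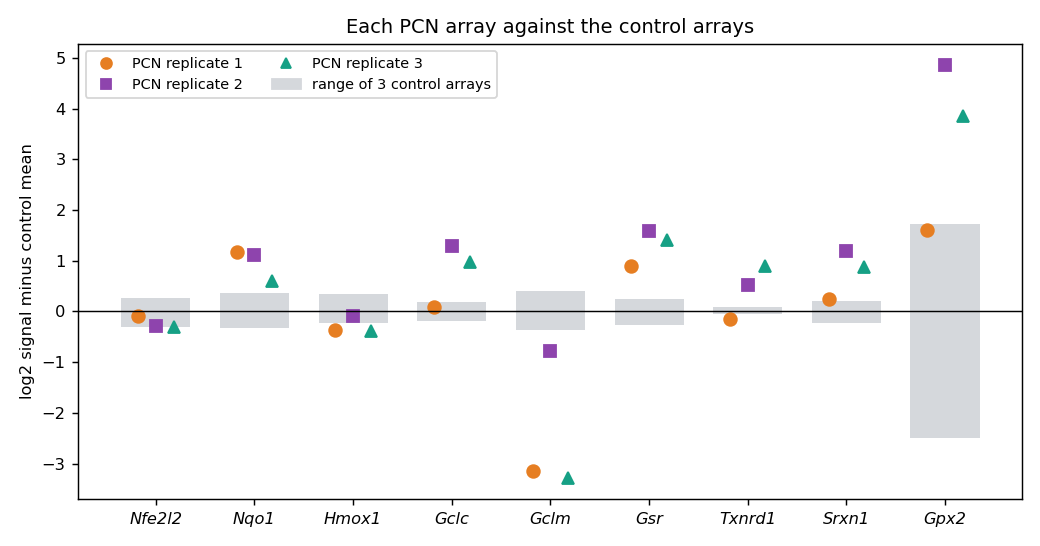
Level on each PCN array minus the mean of the 3 control arrays, on the log2 scale, for the 9 genes, with grey bars for the range of the 3 control arrays. PCN replicate 1 (circles) lies within or next to the grey range for Gclc, Txnrd1, Srxn1 and Gpx2, where PCN replicates 2 and 3 lie above it.

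Of 27 tested genes among others commonly listed as NRF2 targets, 10 rose and 1 fell, against 4.37% higher and 15.5% lower among all genes, with a median of 0.43 (0.15 with the spike-in scaling, where 7 were called higher). Members of one family differed in their calls. The transferases Gsta3 and Gstp1 (0.17 and -0.04, adjusted p = 0.43 and 0.86) did not pass the test. The pumps Abcc2 and Abcc4 (0.43 and -0.10, adjusted p = 0.0564 and 0.83) did not pass either. Several genes of the list, such as the alpha class transferases, Ephx1, Ugt1a6 and Abcc3, are also known targets of PXR and the related receptor CAR, and the list does not separate these routes. Gsta5 rose by 2.71 ± 0.22 and Gsta2 by 2.19 ± 0.29 (adjusted p = 8.18e-04 and 4.31e-03), and cross-hybridisation between near-identical alpha class transferases was not tested. Ephx1, microsomal epoxide hydrolase, rose by 1.64 ± 0.27 and the glucuronosyltransferase Ugt1a6 by 1.35 ± 0.13 (adjusted p = 8.92e-03 and 1.46e-03). The efflux pump Abcc3 was dim on all 3 control arrays, so it entered the test only through the PCN arrays. It was called higher (adjusted p = 0.0151), a direction that this entry favours, and is counted among the 10 that rose. Its levels were -5.43, -3.26 and -4.07 in PCN livers, against -6.63, -6.99 and -6.87 in controls. The group means were at least 5.40-fold apart, each control array taken at the lowest signal well above background or its own, whichever was higher. This bound holds for the means and not for each array, and the size is not a measured fold. With normexp the difference of Abcc3 was 0.76 (adjusted p = 0.0155). Akr1b8, an aldo-keto reductase, fell by 1.82 ± 0.47 (adjusted p = 0.0380), a call that ended without PCN replicate 1, 2 or 3 or control replicate 2, at adjusted p of up to 0.106.

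Over the 119 tested genes of the 7 lists together, 23 were called higher and 6 lower, with a median of 0.12. This stands beside 4.37% higher and 15.5% lower of all tested genes, 19.9% in either direction. Of the list genes, 29 were called in either direction. Of these 29, 16 kept the call in all 6 fits with 1 array left out, 15 higher and 1 lower. The 1 lower was Gpx6, well above background on 1 PCN array only, which entered the test through the controls. The 15 higher include Abcc3, which entered only through the PCN arrays. For both, that entry favours the direction called. Among the 23 called higher, PCN replicate 1 was the lowest PCN array for 16 (69.6%), against 44.4% of all genes that rose and 37% of the 119 tested list genes. With the spike-in scaling 11 of the list genes were called higher and 13 lower, beside 156 and 4945 of all 16389 genes, and with median scaling 45 were higher and 2 lower, beside 2686 and 1866.

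**Figure D4:**
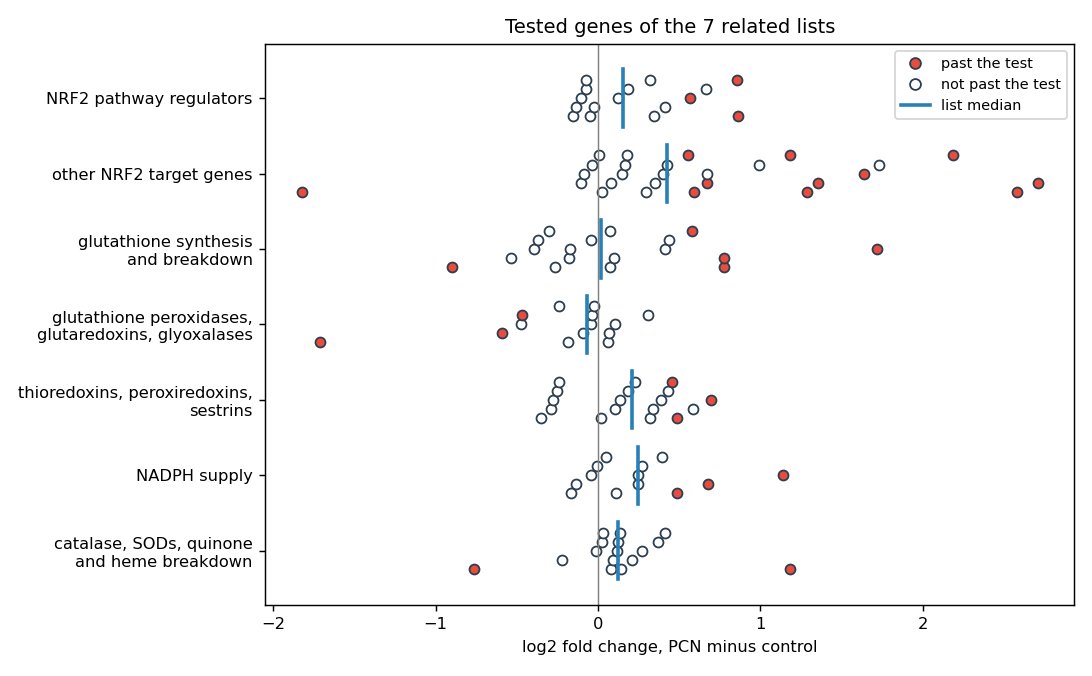
Difference on the log2 scale, PCN minus control, of each tested gene in the 7 related lists, 1 point per gene, filled where the gene passed the test, with the list median as a line. The list of other NRF2 targets reaches from -1.82 (Akr1b8) to 2.71 (Gsta5), and most filled points lie to the right of 0.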

How the data were processed

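Liver RNA of 3 PCN and 3 control rats was read on 1 array each. The deposited intensity values of the scanner, per the file headers written by version 10.7.3.1 of the Agilent software Feature Extraction, are background-subtracted but not scaled between arrays. The deposited quality marks of other kinds (well above background, outlier, saturated) are set per spot by that software, per the file headers. The authors' deposited value table is a linear ratio, not centred, by comparison with the scanner values the processed signal over the 75th percentile of its array (correlation 0.999998 on the log scale for each array over bright spots, column medians 0.08 with PCN and 0.09 in controls).

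Log2 processed signal minus the 75th percentile over non-control spots was computed, spots of 1 probe were averaged without outlier spots, and a probe was tested if well above background (at least 0.5 of its spots) on all 3 arrays of at least 1 group. The brightest tested probe stood for a gene. Of 30367 probes, 18004 matched 1 symbol in the RefSeq table of GRCr8, and the files name rn4, so probe coordinates are not given. The groups were compared with limma 3.58.1 in R 4.3.3 (both groups in 1 fit, two-sided), tested on simulated data. limma calls are at adjusted p under 0.05. The number of arrays limits the precision. All 9 members are named, then up to 6 genes past the test per list, and the 3 nearest profiles of each member that passed. Members and lists were chosen with earlier results of these data known, from textbook knowledge. The scanner files hold a median and no mean signal, so normexp (offset 50) used the median signal.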

Additional observations from a re-analysis of the deposited data

How the results depend on the processing

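The alternatives were 4 other scalings (quantile, median, cyclic loess, E1A spike-ins), normexp, the deposited table, log2(value + 0.01), 2 other filters on dim probes, outlier spots kept, 2 other ways to treat several probes, a replicate block and each array left out. The direction of each of the 9 members was the same in all alternatives that gave it a value (Gclm was not tested where probes had to be well above background on all 6 arrays). Genes past the test numbered 3263, 5101 with spike-in scaling, 1967 with no filter and 2067 with the replicate block, and 2023 to 2592 with 1 array left out (2023, 2112 and 2048 without control replicate 1, 2 and 3). Of genes past the test 716 were higher and 2547 lower, against 2686 and 1866 with median scaling and 156 and 4945 with spike-in scaling, and 1032 and 1997 with quantile normalization, 792 and 1432 with normexp. The median difference of all tested genes was -0.06, 0.14 with median scaling and -0.34 with spike-in scaling. Members past the test numbered 3, 1 with no filter and 1 with the replicate block (Gsr), and 1 to 4 with 1 array left out (1 without control replicate 1 or 2). The genes of the related lists past the test numbered 29, 47 with median scaling, 19 with no filter and 18 with the replicate block, and 19 to 28 with 1 array left out (19 without control replicate 1). Nqo1 was not called with spike-in scaling, no filter or the replicate block (adjusted p = 0.0764, 0.0687 and 0.0852), nor Gclm with quantile normalization, cyclic loess, no filter or the replicate block (adjusted p = 0.0854, 0.0708, 0.0969 and 0.0641). Ggt5 reversed to 0.014 with normexp. The cause of these shifts was not tested. Same-numbered arrays of the 2 groups did not deviate together (correlation -0.10, -0.03 and -0.05). These values gave no sign that the replicate numbers pair the rats, but a weak pairing could give the same values. Probes near background, such as those of Gclm, Ggt5 and Gpx6, are limited by signal.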
